A study of Mus musculus with 9 samples.

Results

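The MHC class II genes and Ciita were followed across conventional dendritic cells (cDC) of the mouse spleen. The 10 listed genes were H2-Aa, H2-Ab1, H2-Eb1, H2-DMa, H2-DMb1, H2-DMb2, H2-Oa, H2-Ob, Cd74 and Ciita, chosen by name. A gene entered when the array held a transcript cluster, a set of probes for one locus, that the platform annotation gave a single gene symbol. This left 8 of the 10, with 1 cluster each. H2-DMb1 and H2-DMb2 shared 1 cluster that carried both symbols, so neither has a value. All 8 measured genes passed the brightness filter of the fit, which kept 10728 of the 19938 genes with a one-symbol cluster.

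RNA came from 9 samples, 1 Affymetrix array each, all sort-purified cDC from spleens of strain 129SvEv/Tac. The 5 groups were resting wild-type (WT) cDC1, 1 array; activated cDC2 of Batf-/- Batf3-/- double knockouts (DKO), 2 arrays; activated WT cDC2, 2 arrays; resting DKO cDC2, 2 arrays; and resting WT cDC2, 2 arrays. Activated cells had 1 h of IFN-gamma at 100 ng/ml, then 3 h with added E. coli LPS at 1 µg/ml. Batf and Batf3 encode AP-1 transcription factors, and the design asked which cDC genes they control. Whether replicate arrays stem from different animals is not in the labels; the p-values cover only the variation among these arrays, and it may be technical. They do not say how resting cells were kept. Culture and stimulation therefore cannot be told apart. There was no DKO cDC1 sample.

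MHC class II molecules show peptides from endosomes to CD4+ T cells. Their alpha and beta chains assemble with the invariant chain, encoded by Cd74, which blocks the groove and guides the complex to endosomes. There H2-DM removes the last invariant chain fragment and helps stable peptides to bind, while H2-O inhibits H2-DM. CIITA, a co-activator that does not bind DNA itself, is recruited to the class II promoters by a complex of RFX, CREB and NF-Y proteins, and dendritic cells are among the few cell types with steady CIITA expression. On activation, dendritic cells are known to shut down Ciita transcription over hours and to stabilise class II already at the surface.

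Promoter sequences are shown because the common regulator of these genes acts there. The RefSeq promoter table (GRCm38.p6) listed 7 of the 10 genes, and H2-Ab1, Cd74 and Ciita were not among them. The 4 windows below hold a short stretch, GCAAC, followed on the strand of the gene by TGATTGG, whose first letter lies 28 to 31 bases after the first letter of GCAAC. Both are given in capitals, and each window holds the 130 bases before the annotated start, 5′ to 3′. TGATTGG contains the CCAAT box that NF-Y binds, read on the other strand, and GCAAC is part of the class II X box bound by RFX.

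H2-Aa, chr17:34287824-34287953, minus strand: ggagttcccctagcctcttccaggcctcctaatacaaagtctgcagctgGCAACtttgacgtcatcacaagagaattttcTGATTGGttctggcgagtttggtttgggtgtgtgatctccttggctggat
H2-Eb1, chr17:34305737-34305866, plus strand: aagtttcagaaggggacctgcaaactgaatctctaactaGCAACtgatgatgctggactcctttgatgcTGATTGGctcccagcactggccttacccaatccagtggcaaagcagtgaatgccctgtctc
H2-Oa, chr17:34092249-34092378, plus strand: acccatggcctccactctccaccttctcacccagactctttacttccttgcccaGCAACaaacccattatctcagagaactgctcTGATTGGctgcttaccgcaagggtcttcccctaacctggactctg
H2-Ob, chr17:34238775-34238904, plus strand: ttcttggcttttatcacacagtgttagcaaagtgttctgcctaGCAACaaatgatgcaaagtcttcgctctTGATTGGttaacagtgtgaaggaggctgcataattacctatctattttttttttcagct

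The pair with its first letters 20 to 60 bases apart was found in 64 of 32851 mouse promoter windows (0.195%) over the 250 bases before the start. TGATTGG alone, on either strand, was in 7.23% of windows and GCAAC, also on either strand, in 29.9%. The windows of H2-DMb1 and H2-DMb2 hold TGATTGG and no GCAAC, and TGATTGG is in neither of the 2 windows listed for H2-DMa. The core of an AP-1 element, TGANTCA, searched on both strands, was in 6.75% of all windows and, among the listed genes, in H2-DMb1 and 1 of the 2 H2-DMa windows. It is in none of the 4 windows printed. These letters and their spacing were chosen after the sequences were seen, and a match describes the window only.

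The labelled cell types were checked against their markers. The cDC1 array had Xcr1 at 9.33 and Clec9a at 8.67 (log2 intensity), against 4.42 to 4.73 and 3.64 to 4.32 on the cDC2 arrays. Sirpa was at 7.05 on the cDC1 array, against 9.05 to 10.30 in cDC2, and Irf4 at 5.13, against 9.37 to 11.02. The median log2 difference, cDC1 minus resting WT cDC2, was 1.46 over 12 tested cDC1 markers and -1.3 over 9 tested cDC2 markers. Flt3, of the cDC2 list, went the other way, at 10.02 on the cDC1 array against 7.14 to 9.25 in cDC2. Irf8, Batf3 and Tlr3, of the cDC1 list, reached 12.27, 9.92 and 7.03 in activated cDC2, above the cDC1 array at 9.94, 8.59 and 6.35. Cd209a, Clec4a4, Clec10a and Itgam, other cDC2 markers, did not pass the brightness filter. Batf was between 5.31 and 5.44 on the 4 DKO arrays, against 6.74 to 9.07 on the 4 WT cDC2 arrays, and Batf3 between 6.43 and 7.17, against 7.58 to 9.92. B cells also express MHC class II, but Cd79a stayed between 4.27 and 4.56 on all 9 arrays, below the brightness threshold of 5.94, and only 1 or 2 of 13 measured B cell markers exceeded it. Replicate arrays correlated at 0.969 to 0.980 across the 10728 genes.

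The genes for chains of the peptide-presenting molecules were bright and nearly flat. They were H2-Aa (the alpha chain of I-A), H2-Ab1 (its beta chain) and H2-Eb1 (the beta chain of I-E). H2-Aa had a log2 intensity of 12.90 on the cDC1 array. In activated cDC2 it had 12.87 and 12.68 in DKO, against 13.00 and 12.90 in WT. In resting cDC2 it had 12.87 and 12.88 in DKO, against 13.03 and 12.93 in WT. The DKO arrays were therefore all below the WT cDC2 arrays, by a small margin, and the states overlapped when the genotypes were pooled.

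H2-Ab1 had a log2 intensity of 13.10 on the cDC1 array, inside the range of the cDC2 arrays. Its levels in activated cDC2 were 13.15 and 13.04 in DKO, against 13.27 and 13.09 in WT. Those in resting cDC2 were 13.14 on both DKO arrays, against 13.34 and 13.19 in WT. Its genotypes were apart in resting cells and overlapped in activated ones.

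H2-Eb1 had a log2 intensity of 13.07 on the cDC1 array. The activated cDC2 arrays had 12.86 and 12.61 in DKO, against 13.08 and 12.93 in WT. The resting cDC2 arrays had 12.95 and 12.90 in DKO, against 13.10 and 13.02 in WT. The lowest values of H2-Aa, H2-Ab1 and H2-Eb1 were all on the second activated DKO array and the highest all on the first resting WT array. Over 9 arrays the Pearson correlation was 0.94 between H2-Aa and H2-Eb1 and 0.86 between H2-Aa and H2-Ab1, a description of arrays that share libraries and groups.

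Cd74, the invariant chain, varied least, with a range of 0.16 log2 units over all 9 arrays. It had a log2 intensity of 12.74 on the cDC1 array. Activated cDC2 had 12.83 and 12.72 in DKO, against 12.89 and 12.75 in WT. Resting cDC2 had 12.86 and 12.80 in DKO, against 12.88 and 12.81 in WT. No neighbouring groups in the order of Cd74 levels differed by more than their spread. The brightest clusters of the arrays lay at 13.60 to 13.73, and H2-Aa, H2-Ab1, H2-Eb1 and Cd74, at 12.61 to 13.34, sat near that top; whether intensity still followed RNA there was not tested. H2-Ea, the alpha chain of I-E, is no member of the list and was at 3.88 to 4.13, below the brightness threshold. The H2-Eb1 RNA level therefore does not show that the I-E molecule was present in these cells.

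**Figure D1:**
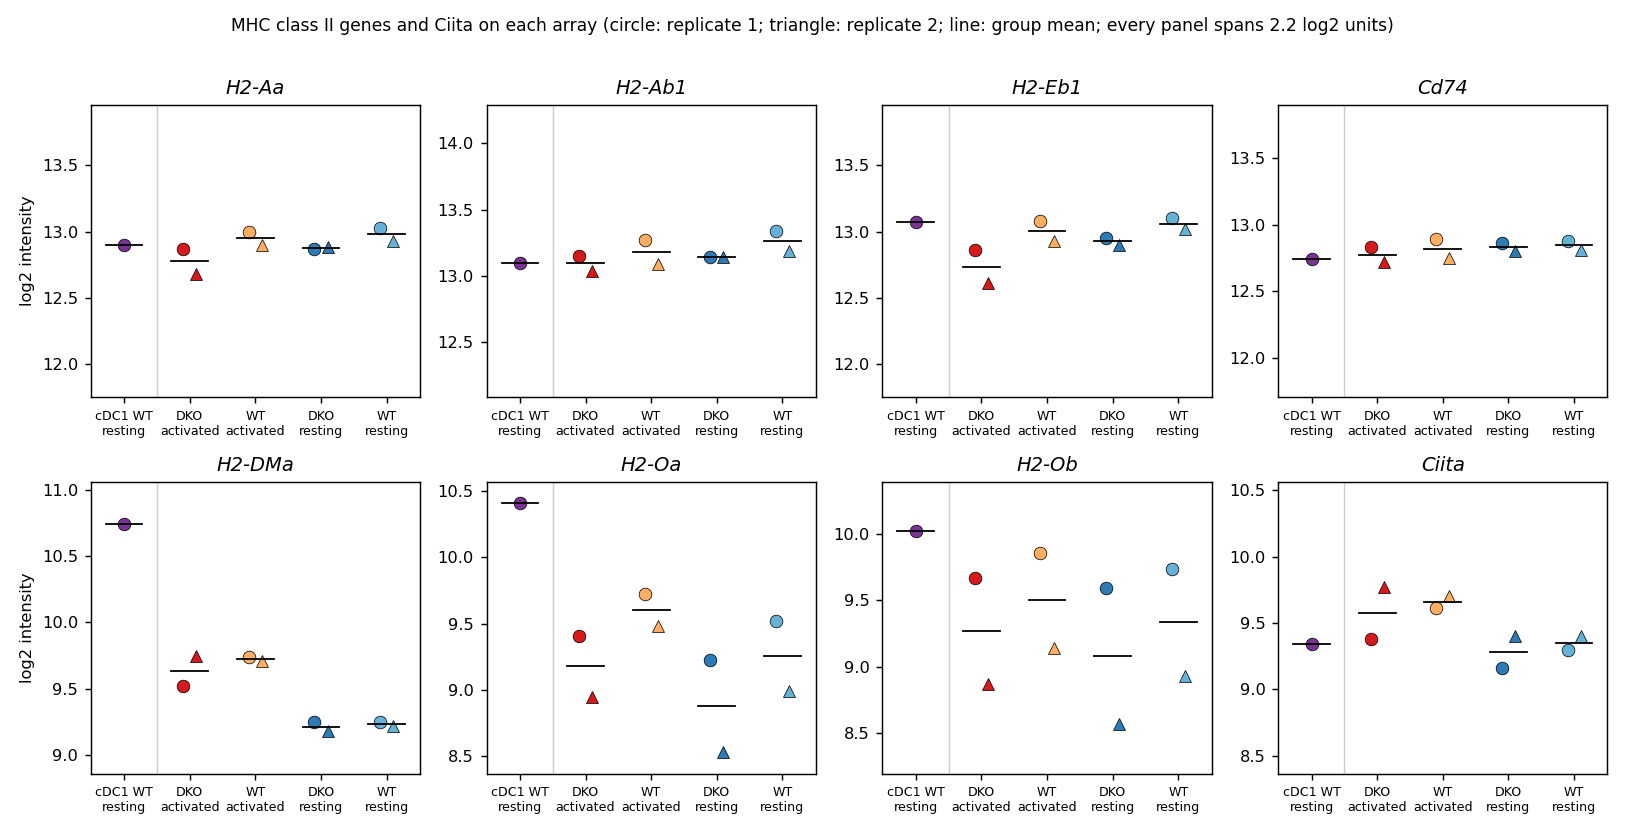
Log2 intensity of the 8 measured genes on each array, one panel a gene, with groups from left to right as cDC1, activated DKO, activated WT, resting DKO and resting WT; the circle is replicate 1, the triangle replicate 2 and the line the group mean, and every panel spans 2.2 log2 units. Cd74 lies within 0.16 log2 units on all 9 arrays, H2-DMa is highest on the cDC1 array at 10.74, and replicate 1 lies above replicate 2 for H2-Oa and H2-Ob in all 4 cDC2 groups.

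H2-DMa encodes the alpha chain of the peptide exchange factor H2-DM. Of the 8 measured genes, it was the one that passed a test in the fit without a replicate block. With the replicate number as a block, H2-Oa and Ciita also passed for activation averaged over genotypes (limma adjusted p = 0.0171 and 0.012). H2-Oa then also passed for genotype averaged over states (limma adjusted p = 0.0456) and for cDC1. Without the block, H2-DMa was higher with activation and higher in cDC1. Its log2 intensity was 10.74 on the cDC1 array. In activated cDC2 it was 9.52 and 9.75 in DKO, against 9.74 and 9.71 in WT. In resting cDC2 it was 9.25 and 9.18 in DKO, against 9.25 and 9.22 in WT. Every activated array lay above every resting cDC2 array, as for 11.4% of all genes (19.9% within WT and 21% within DKO), and the cDC1 array lay 1.02 above the mean of activated WT cDC2, the next group in order.

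With activation H2-DMa rose by a log2 difference of 0.45 ± 0.07 (SE; 95% interval 0.28 to 0.63) averaged over both genotypes, 1.37-fold, with 4 activated against 4 resting arrays (limma over all 10728 genes, Benjamini-Hochberg adjusted p = 0.00712). It was 1 of 8 measured genes called higher, and 10.6% of all genes tested were called higher in that comparison. In DKO cDC2 the rise was 0.42 ± 0.10 (limma adjusted p = 0.0482), where 5.82% of all genes were called higher. In WT cDC2 it was 0.49 ± 0.10 (limma adjusted p = 0.0383), where 3.97% of all genes were called higher. The difference between the genotypes' responses was -0.07 ± 0.15 (95% interval -0.43 to 0.28; limma adjusted p = 1).

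The calls within 1 genotype were near the threshold. Without any 1 of the 8 cDC2 arrays the DKO call was lost (0.30 to 0.53, limma adjusted p between 0.0688 and 0.196), and without any 1 of the resting DKO, resting WT or activated WT arrays the WT call was lost (0.48 to 0.50, limma adjusted p between 0.0713 and 0.144). The call over both genotypes was kept without each array. Other markers also differed between the states. Of 9 tested cDC2 markers, 6 fell with activation (Cd300a, Itgax, Flt3, Cd4, Esam and Sirpa) and 1 rose, Irf4, beside 21.7% and 10.6% of all genes. The 12 macrophage markers summed to 1560 to 2170 (linear intensity) on activated and 2240 to 3240 on resting cDC2 arrays. Of 9 tested, 3 were called lower (Hmox1, Csf1r and Spic) and 0 higher, beside 21.7% and 10.6% of all genes. The median log2 difference of the 9 was 0.02, and C1qb went the other way, at 0.40 ± 0.14 (limma adjusted p = 0.0719). The 8 T cell markers, mostly Il7r, summed to 1090 to 1860 on activated and 2030 to 3010 on resting arrays. The sum of plasmacytoid dendritic cell markers overlapped between the states. Their part in the H2-DMa difference was not tested.

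In resting WT cells H2-DMa was higher in cDC1 than in cDC2 by 1.51 ± 0.13 (95% interval 1.20 to 1.82; 2.84-fold; limma adjusted p = 0.00182). It was again 1 of 8 called higher, beside 7.08% of all genes. The comparison sets 1 cDC1 array against 2 cDC2 arrays, and its error takes the spread of the lone cDC1 array from the other groups. It shares the 2 resting WT cDC2 arrays with the WT comparisons of activation and of genotype.

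H2-Oa and H2-Ob encode the alpha and beta chains of H2-O, the inhibitor of H2-DM. H2-Oa had a log2 intensity of 10.41 on the cDC1 array. After activation H2-Oa had 9.41 and 8.95 in DKO cDC2, against 9.72 and 9.48 in WT cDC2. At rest it had 9.23 and 8.53 in DKO cDC2, against 9.52 and 8.99 in WT cDC2. The cDC1 array was the highest, above each of the 8 cDC2 arrays, and the genotypes overlapped in resting cells but not in activated cells.

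H2-Ob had a log2 intensity of 10.02 on the cDC1 array. Among activated cDC2 it had 9.67 and 8.87 in DKO, against 9.86 and 9.14 in WT. Among resting cDC2 it had 9.59 and 8.57 in DKO, against 9.74 and 8.93 in WT. All 4 cDC2 groups overlapped each other. No comparison of H2-Oa or H2-Ob passed the test in the fit without a replicate block. In cDC1 the difference from resting WT cDC2 was 1.15 ± 0.36 for H2-Oa (95% interval 0.27 to 2.03; limma adjusted p = 0.0891) and 0.68 ± 0.59 for H2-Ob (95% interval -0.74 to 2.10; limma adjusted p = 0.509).

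The replicates of these 2 genes stood apart in the same direction in every cDC2 group. Replicate 1 exceeded replicate 2 for H2-Ob by 0.80 in activated DKO, 0.72 in activated WT, 1.02 in resting DKO and 0.81 in resting WT cDC2. For H2-Oa it did so by 0.45 in activated DKO, 0.25 in activated WT, 0.70 in resting DKO and 0.53 in resting WT cDC2. By comparison, the activation differences averaged over genotypes were 0.17 ± 0.34 for H2-Ob and 0.32 ± 0.21 for H2-Oa. Each H2-Ob gap exceeded that gene's activation difference, and 3 of the 4 H2-Oa gaps did. H2-Eb1 and Cd74 were also higher on replicate 1 in all 4 groups, by 0.05 to 0.25 and 0.06 to 0.13. In all, 4 of 8 genes were higher on replicate 1 throughout, beside 19% of all genes tested, and Ciita alone was lower throughout, beside 25.5%.

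Some markers of other cell types moved with the replicate number. The summed linear intensity of 8 measured plasmacytoid dendritic cell markers was 4360 on replicate 1 and 6290 on replicate 2 in activated DKO, 4430 and 7600 in activated WT, 1740 and 3620 in resting DKO, and 2490 and 6880 in resting WT cDC2. Most of the difference between replicates came from Bst2, an interferon-inducible gene, which had a log2 intensity of 11.07 and 12.05 in activated DKO, 11.04 and 12.28 in activated WT, 9.40 and 11.44 in resting DKO, and 9.83 and 12.36 in resting WT cDC2. Ccr9 went the other way in all 4 groups, with 5.95 and 5.68 in activated DKO, 7.27 and 6.12 in activated WT, 8.14 and 7.40 in resting DKO, and 9.06 and 8.51 in resting WT cDC2. Between 5 and 7 of the 8 were above the brightness threshold of 5.94 on each array. Siglech, the defining one, exceeded it only on replicate 1 of resting WT cDC2, at 5.97. On the other arrays Siglech was at 5.66 to 5.86. For 7 monocyte markers the sums were 1390 and 1030 in activated DKO and 1820 and 1280 in activated WT cDC2. In resting cDC2 they were 1690 and 1240 in DKO, and 2420 and 1520 in WT. Of these markers, Nr4a1, Treml4, Lyz2 and Spn were higher on replicate 1 in all 4 groups. Cx3cr1, Ace and Ccr2 were not. The 13 B cell markers summed to between 459 and 522 on all 9 arrays, with no order by replicate that held in all groups. In bulk samples fewer cells of a type and less RNA per cell cannot be told apart, and the part of the other cell types in the H2-Oa and H2-Ob gaps was not tested.

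**Figure D2:**
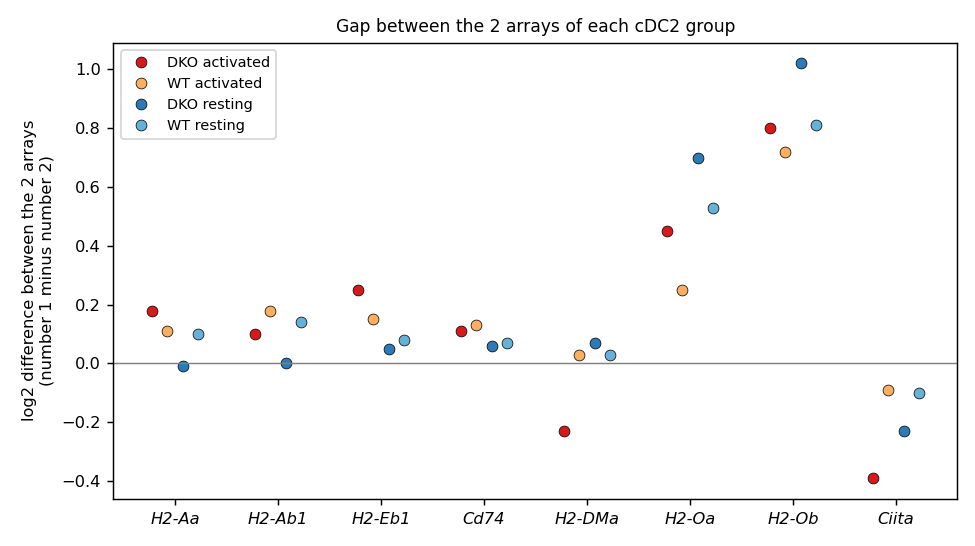
Log2 intensity of replicate 1 minus replicate 2 for each of the 8 measured genes in the 4 cDC2 groups. H2-Ob lies between 0.72 and 1.02 and H2-Oa between 0.25 and 0.70, whereas Ciita lies between -0.39 and -0.09.

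Ciita, the co-activator that the class II genes share, had a log2 intensity of 9.34 on the cDC1 array. Its level in activated cDC2 was 9.38 and 9.77 in DKO, against 9.61 and 9.70 in WT. In resting cDC2 Ciita had 9.16 and 9.40 in DKO, against 9.30 and 9.40 in WT. The activated WT arrays lay above the resting WT arrays, as for 19.9% of all genes, and the DKO states overlapped, since the first activated DKO array was below the second resting one.

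Averaged over genotypes the Ciita difference with activation was 0.30 ± 0.11 (95% interval 0.03 to 0.56; unadjusted p = 0.0331, limma adjusted p = 0.0834), which did not pass. With the replicate number as a block the average was also 0.30 and passed (limma adjusted p = 0.012). Without the block the Ciita difference was 0.29 ± 0.16 in DKO and 0.30 ± 0.16 in WT cDC2. Without replicate 1 of activated DKO, the average was 0.39 and passed (limma adjusted p = 0.0446). No lower mean Ciita RNA level was seen after these hours of IFN-gamma and LPS. The 95% interval of the average, not adjusted for the number of genes, started at 0.03. Within DKO and within WT the intervals included 0, starting at -0.08 and -0.07. The arrays measured the RNA level and not transcription. Over 9 arrays the Pearson correlation of Ciita was 0.22 with H2-DMa and -0.51 with Cd74; over the 8 cDC2 arrays these were 0.85 and -0.67, as descriptions.

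For the remaining genes activation gave small differences that did not pass the test. Averaged over genotypes they were -0.07 ± 0.07 for H2-Aa, -0.07 ± 0.08 for H2-Ab1, -0.12 ± 0.08 for H2-Eb1 and -0.04 ± 0.07 for Cd74, with 95% intervals that together spanned -0.33 to 0.13. The median over the 8 genes was 0.07, beside -0.08 over all genes tested. In DKO cDC2 the activated arrays lay below the resting ones for H2-Aa and H2-Eb1, as they did for 39.3% of all genes. The response did not pass a test of difference between genotypes for any of the 8. By limma 0 of 10728 genes did, and 121 had an unadjusted p below 0.05. The background was 0%.

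**Figure D3:**
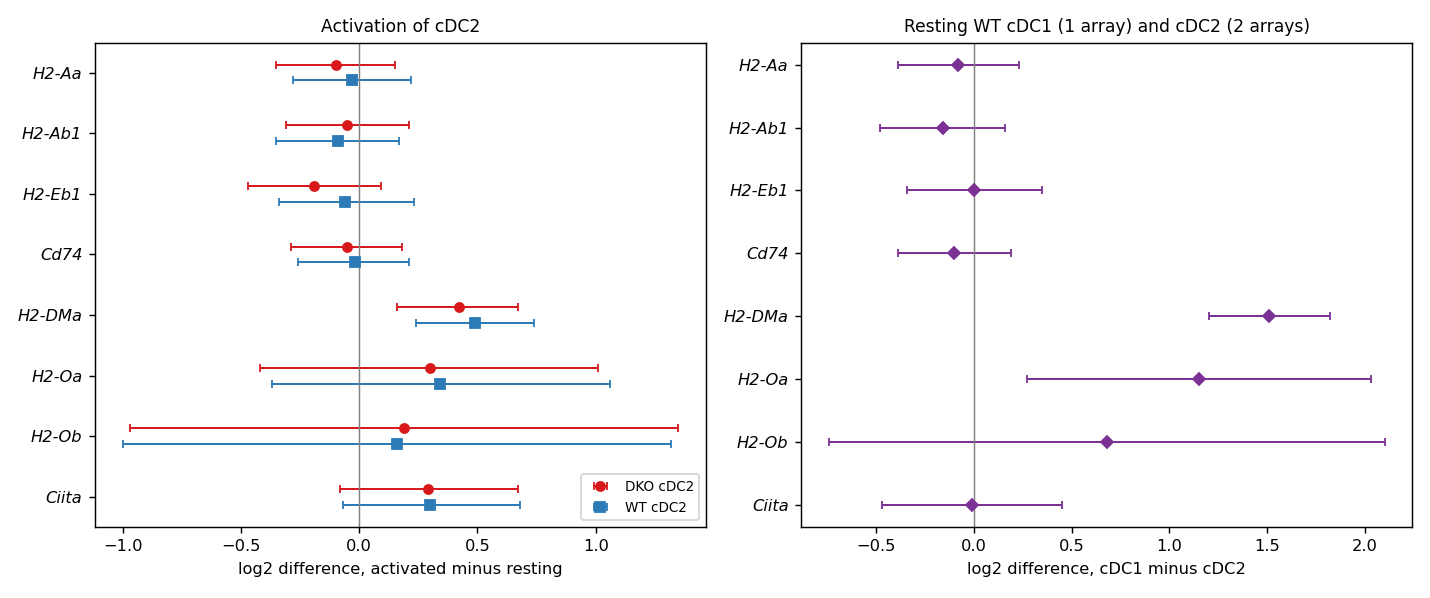
Log2 differences of the 8 measured genes with 95% intervals from limma; the left panel shows activated minus resting cDC2 in DKO and in WT, and the right panel shows cDC1 minus cDC2 in resting WT. The H2-DMa intervals lie above 0 in both panels, with differences of 0.42 in DKO, 0.49 in WT and 1.51 in cDC1.

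Genes whose products act with or upstream of CIITA were also compared between the states. Of 12 genes for the promoter complex and CIITA partners, 2 rose and 2 fell with activation, averaged over genotypes, beside 10.6% and 21.7% of all genes. Rfxank, an RFX subunit, fell by 0.66 ± 0.10 on the log2 scale (limma adjusted p = 0.00537), with 7.33 and 7.64 in activated DKO, 7.24 and 7.37 in activated WT, 8.12 and 8.18 in resting DKO, and 7.85 and 8.07 in resting WT cDC2. Nfyc, an NF-Y subunit, fell by 0.54 ± 0.10 (limma adjusted p = 0.00947). The acetyltransferase gene Kat2b rose by 0.99 ± 0.21 (limma adjusted p = 0.0154). It did not pass without replicate 1 of resting DKO, replicate 1 of activated DKO or replicate 2 of activated WT (0.87 to 0.98). Ep300, another acetyltransferase gene, rose by 0.28 ± 0.07 (limma adjusted p = 0.0247). Its call was lost without either resting DKO array, replicate 1 of activated DKO or resting WT, or replicate 2 of activated WT (0.25 to 0.29), and with quantile normalization (0.18, limma adjusted p = 0.0853).

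Of 10 tested genes listed as regulators of Ciita, 5 rose with activation and 1 fell, averaged over genotypes, beside 10.6% and 21.7% of all genes. The list includes Nlrc5, which is among the 5 and is a counterpart of CIITA, not its regulator. Within DKO cDC2 the counts were also 5 and 1, and within WT cDC2 they were 3 (Irf8, Irf1 and Irf2) and 1. Of all 10728 genes, 5.82% were called higher within DKO and 3.97% within WT. In either direction 1472 and 1131 genes were called. Irf8, an interferon regulatory factor of cDC1, had 12.27 and 11.67 in activated DKO and 12.06 and 11.73 in activated WT, against 8.46 and 7.64 in resting DKO and 8.06 and 7.65 in resting WT cDC2. Its log2 difference was 3.98 ± 0.23 (limma adjusted p = 0.000431). Irf1, through which IFN-gamma acts on the inducible Ciita promoter in other cell types, rose by 2.23 ± 0.11 (limma adjusted p = 0.000308), and by 1.33 when all its one-symbol clusters were averaged. Nlrc5, the counterpart of CIITA for MHC class I, rose by 1.24 ± 0.22, Irf4 by 1.03 ± 0.16 and Irf2 by 0.79 ± 0.12. Spi1, which encodes PU.1, fell by 0.85 ± 0.10 (limma adjusted p = 0.00288). Of 12 cDC1 markers, 2 were called higher with activation, Irf8 and Cd24a, and 0 lower.

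Of 17 tested genes of peptide loading and class II turnover, 4 were higher and 5 lower with activation, averaged over genotypes, beside 10.6% and 21.7% of all genes. Within DKO cDC2 the counts were 2 and 4, and within WT cDC2 0 and 2. Of all 10728 genes, 5.82% were called higher within DKO and 3.97% within WT, and 1472 and 1131 were called in either direction. Ctsd, a lysosomal protease gene, fell by 1.38 ± 0.13 (limma adjusted p = 0.00136). Ifi30, the gene of a lysosomal thiol reductase, fell by 0.86 ± 0.12 (limma adjusted p = 0.00439). Sppl2a, whose product cleaves the remaining invariant chain stub, rose by 0.86 ± 0.14 (limma adjusted p = 0.00689), and Ptger4, a prostaglandin receptor gene, by 0.71 ± 0.13 (limma adjusted p = 0.0107). Tmem106a at 1.07 ± 0.33 and Ctsz at -0.70 ± 0.19 also passed (limma adjusted p = 0.0495 and 0.0347). The Tmem106a call was lost without any cDC2 array except replicate 2 of resting WT (0.72 to 1.25), and the Ctsz call without any except replicate 1 of resting DKO and replicate 2 of activated DKO (-0.79 to -0.54). Without the brightness filter both calls were lost (limma adjusted p = 0.0869 for Tmem106a and 0.0592 for Ctsz), and that of Tmem106a also with quantile normalization (0.0604) and on the log2(value + 16) scale (0.0511).

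Of 7 tested neighbours of the class II genes in the MHC, 2 rose and 0 fell, averaged over genotypes, beside 10.6% and 21.7% of all genes. Neither genotype alone had a call in this list, where 5.82% of all genes were called higher within DKO and 3.97% within WT. Tap1 and Tap2 encode the peptide transporter of the class I pathway. Tap2 rose by 0.82 ± 0.23 (limma adjusted p = 0.0401) and Tap1 by 0.62 ± 0.14 (limma adjusted p = 0.0191). The Tap2 call was lost without any cDC2 array except replicate 2 of resting WT (0.59 to 0.95), and the Tap1 call without replicate 1 of resting DKO, either activated DKO array or replicate 2 of activated WT (0.57 to 0.64). That of Tap2 was also lost with quantile normalization (limma adjusted p = 0.0553) and without the brightness filter (0.0692).

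The genotype comparison asked whether loss of Batf and Batf3 altered these genes in cDC2. All 8 measured genes had lower means in DKO than in WT cDC2 in both states. None of the differences passed the test in the fit without a replicate block. By limma without the block, 0 of the 8 genes were called in either state, beside 0.0186% of all genes (2 of 10728 in each). With the block, 61 genes were called in activated cells, 79 in resting cells and 599 averaged over states. Of the 8, H2-Oa then passed averaged over states, at -0.40 (limma adjusted p = 0.0456). At an unadjusted p below 0.05 there were 638 genes in activated and 707 in resting cells, none of them among the 8. A difference below 0 was found for 47% of all genes in activated cells, 45.7% in resting cells and 31.2% in both. The arrays did not overlap, with DKO lower, for 3 of the 8 in activated cells (H2-Aa, H2-Eb1 and H2-Oa; 13.5% of all genes) and 3 in resting cells (H2-Aa, H2-Ab1 and H2-Eb1; 13.4%). Across the 8, the median log2 difference was -0.13 in activated and -0.11 in resting cells, beside 0.01 over all genes in each.

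Among the presenting chains, H2-Eb1 differed by -0.27 ± 0.12 in activated cells (95% interval -0.55 to 0.01; limma adjusted p = 0.861) and by -0.14 ± 0.12 in resting cells (-0.42 to 0.15; limma adjusted p = 0.999). Averaged over states it was -0.20 ± 0.08, with an unadjusted p of 0.047 and a limma adjusted p of 0.45. H2-Aa differed by -0.17 ± 0.10 in activated cells (95% interval -0.43 to 0.08) and -0.10 ± 0.10 in resting cells (-0.35 to 0.15). The DKO arrays of both genes lay below the WT arrays within each state, as they did for 5.07% of all genes. For H2-Aa they did so over all 4 arrays against 4, as for 1.19%.

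For the other genes the intervals allowed larger or opposite differences. H2-Ab1 differed by -0.08 ± 0.11 in activated and -0.12 ± 0.11 in resting cells. H2-Oa had the lowest estimates, -0.42 ± 0.30 in activated (95% interval -1.14 to 0.30) and -0.38 ± 0.30 in resting cells (-1.09 to 0.34). For H2-Ob they were -0.22 ± 0.48 and -0.26 ± 0.48. Those of Cd74 were -0.04 ± 0.10 and -0.01 ± 0.10, those of H2-DMa -0.09 ± 0.10 and -0.02 ± 0.10, and those of Ciita -0.08 ± 0.16 and -0.07 ± 0.16, in activated and in resting cells. Marker sums of macrophages were also lower in DKO, at 1720 and 1560, against 2070 and 2170 in WT, in activated cells, and at 2470 and 2240, against 2800 and 3240 in WT, in resting cells. Those of 8 T cell markers were 1090 and 1460 in DKO, against 1590 and 1860 in WT, in activated cells, and 2030 and 2490 in DKO, against 2770 and 3010 in WT, in resting cells. The T cell sums consisted mostly of Il7r, at 9.62 to 11.40 (log2) in cDC2, while Cd3d and Cd3g were at 3.88 to 4.32 on all 9 arrays, below the brightness threshold. Of the macrophage markers 6 to 10 of 12 exceeded that threshold on each array, and Cd5l and Mertk were below it on all, at 4.13 to 5.42. By limma, 0 of 9 tested macrophage markers were called in either state, beside 0.0186% of all genes. Their median log2 difference, DKO minus WT, was -0.42 in activated and -0.50 in resting cells. Spic went the other way in resting cells, at 9.56 and 9.08 in DKO against 8.86 and 8.48 in WT. Adgre1 differed by 0.01 in activated and 0.05 in resting cells. The part of macrophages in the class II differences was not tested.

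**Figure D4:**
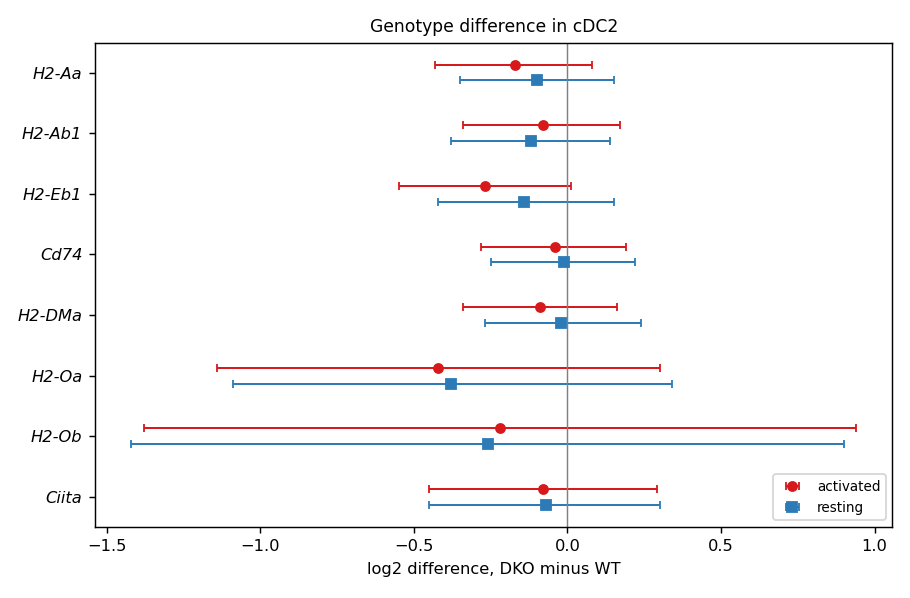
Log2 difference DKO minus WT in cDC2 of each of the 8 measured genes, in activated and in resting cells, with 95% intervals from limma. All 16 estimates lie below 0, between -0.42 and -0.01, and every interval includes 0.

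In the fit without a replicate block, none of the 4 lists of related genes held a call between genotypes, or in the interaction. Nearest was Ctsb, the gene of the lysosomal protease cathepsin B. It had 10.89 and 10.96 in activated DKO, against 11.49 and 11.41 in activated WT, and 11.25 and 11.36 in resting DKO, against 11.79 and 11.82 in resting WT cDC2. The averaged difference was -0.51 ± 0.07 (limma adjusted p = 0.075). Sppl2a was at -0.40 ± 0.14 (limma adjusted p = 0.361), with the next smallest p of that list. Nfya at 0.31 ± 0.08 and Nfyb at 0.18 ± 0.09 had the smallest p among the promoter factors (limma adjusted p = 0.261 and 0.535), Irf1 at -0.29 ± 0.11 and Ezh2 at 0.23 ± 0.12 among the regulators (0.409 and 0.558), and Brd2 at -0.17 ± 0.10 and Tap1 at -0.15 ± 0.14 among the MHC neighbours (0.619 and 0.782).

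Between the subsets, the presenting chains, Cd74 and Ciita did not pass. Their intervals bound the difference in intensity, with 1 cDC1 array whose spread was taken from the other groups. The presenting chains and Cd74 sat near the top of the arrays, where it was not tested whether intensity still followed RNA. In resting WT, cDC1 minus cDC2 was 0.00 ± 0.14 for H2-Eb1 (95% interval -0.34 to 0.35), -0.08 ± 0.13 for H2-Aa (-0.39 to 0.23) and -0.16 ± 0.13 for H2-Ab1 (-0.48 to 0.16). It was -0.10 ± 0.12 for Cd74 (-0.39 to 0.19) and -0.01 ± 0.19 for Ciita (-0.47 to 0.45). The cDC1 array lay above both resting WT cDC2 arrays for H2-DMa, H2-Oa and H2-Ob, as for 38.1% of all genes, and below both for H2-Aa, H2-Ab1 and Cd74, as for 40%. The summed marker intensity of monocytes was 3050 on the cDC1 array and 2420 and 1520 in resting WT cDC2. Of its 6 tested genes, Treml4 was higher in cDC1, at 11.12 against 9.29 and 8.77 in resting WT cDC2, while Cx3cr1 and Ace were lower and the median was -0.50. The part of monocytes in the H2-DMa difference was not tested.

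Of 46 other genes of the pathway tested in the 4 lists, 5 were higher in cDC1 and 3 lower, beside 7.08% and 6.56% of all genes. Cd81, a tetraspanin gene, was at 11.18 in cDC1, against 8.06 and 7.43 in resting WT cDC2, a difference of 3.43 ± 0.27 (limma adjusted p = 0.0015). Rab7b, a GTPase gene of late endosomes, was higher by 2.91 ± 0.35 (limma adjusted p = 0.00517) and Rfxap, an RFX subunit, by 0.92 ± 0.12 (limma adjusted p = 0.00605). Marchf8, encoding a ubiquitin ligase, was higher by 0.67 ± 0.13 (limma adjusted p = 0.0238), and Ctsb was lower, at -0.85 ± 0.11 (limma adjusted p = 0.00723). Irf8 was higher by 2.09 ± 0.41, Irf4 was lower, at -4.53 ± 0.28, and so was Bcl6, at -0.73 ± 0.17, a repressor gene (limma adjusted p = 0.0229, 0.000664 and 0.0372). Without either resting WT cDC2 array the calls of Irf8 (1.88 to 2.29) and Marchf8 (0.59 to 0.74) were lost. That of Bcl6 was lost without any 1 of the resting DKO, resting WT or activated WT arrays (-0.84 to -0.62). On the cDC2 arrays Marchf8 was at 5.21 to 5.41 and Rab7b at 4.32 to 5.57, below the brightness threshold of 5.94. Both entered the fit only through the cDC1 array, where Rab7b was at 8.2 and Marchf8 just above the threshold. Their differences therefore rest on cDC2 levels under the filter. The MHC neighbours had no call in this comparison.

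The genes whose levels were most like those of a member were found among 3565 tested genes that varied by at least 1 log2 unit, by Pearson correlation over the 9 arrays. Ciita was most like Synpo2 (0.975), Dram1 (0.946), Glt8d1 (0.929), Il23r (0.927) and Oprd1 (0.924). H2-Ab1 was most like Cdh17 (0.968), followed by Ahr (0.915), Bach2 (0.906), Soga1 (0.900) and Ccdc180 (0.898). H2-Oa was most like Gpr31b and Map1b (0.945 each), and H2-Ob most like the transporter genes Slc2a1 (0.960), Slc1a4 (0.946) and Slc6a9 (0.937). For H2-DMa, added after its values were seen, they were Mpc1 (0.972) and Crb3 (0.946). With 9 arrays in 5 groups such values describe a shared pattern over groups and replicates.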

How the data were processed

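RNA of 9 samples was hybridised to Affymetrix arrays from biotin-labelled cDNA, per the labels' protocols. The deposited table holds linear intensity; per the submitters' processing notes the tools were Affymetrix Expression Console and RMA; versions and genome build are not given in the sources used here. RMA draws the arrays to a shared distribution; at the same rank the arrays differed by at most 0.31 (log2). The number of arrays limits the precision.

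Log2 was taken here. Of 28853 clusters, 21789 had 1 gene symbol in the platform annotation, which can be old, 1621 several and 5443 none listed; the last 2 kinds were left out. Each gene took its cluster of highest mean. Genes with a group mean above the median value (log2 5.94) entered limma 3.58.1 (R 4.3.3; lmFit and eBayes, two-sided), with 5 group means fitted to all 9 arrays and 4 residual degrees of freedom. Calls have a Benjamini-Hochberg adjusted p below 0.05 over the 10728 genes. The fit was tested on simulated data.

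Groups and replicate numbers come from the sample titles, except that the title of the cDC1 array holds no number. That array was taken as replicate 1. The members and gene lists were chosen with earlier results of these data known. Named from each list were the called genes, at most the 6 of largest change, or, with no call, the 2 of smallest p. Promoter sequences are RefSeq's (GRCm38.p6). Alternatives were the replicate number as a block, cDC2 arrays alone, quantile normalization, median centring, other filters, the mean over clusters, a trended robust prior, log2(value + 16) and leaving out each array.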

Additional observations from a re-analysis of the deposited data

How the results depend on the processing

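Of 568 single-gene differences recomputed under other settings with all arrays, 555 kept their direction and their side of the threshold. With quantile normalization, and with a trended robust prior, 0 of the 8 genes were called with activation in WT and 0 in DKO cDC2: H2-DMa was then at 0.43 and 0.49 in WT (limma adjusted p = 0.0589 and 0.0539) and 0.35 and 0.42 in DKO (0.0824 and 0.0678). With the filter at the 75th percentile, which tests fewer genes, 0 were called in DKO (H2-DMa 0.42, adjusted p = 0.0507). With the replicate block, calls among the 8 became 1 for genotype averaged over states (H2-Oa at -0.40, adjusted p = 0.0456), 3 for activation averaged over genotypes (H2-DMa, H2-Oa at 0.32 and Ciita at 0.30) and 2 for cDC1 (H2-DMa, and H2-Oa at 0.91 ± 0.15, adjusted p = 0.00476), while H2-Ob in cDC1 was 0.26 (adjusted p = 0.146).

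The labels do not say that a replicate number marks a shared mouse or day, and with 2 numbers the samples share only a number. Deviations of same-numbered arrays correlated at 0.454 to 0.695 over the 6 pairs of cDC2 groups. The cDC1 array has no number in its title, so its blocked differences rest on taking it as replicate 1. The block moved the calls over all genes to 61 for genotype in activated and 79 in resting cells, 599 averaged, 3791 for activation in WT, 4080 in DKO, 5656 averaged and 3751 for cDC1, against 2, 2, 2, 1131, 1472, 3472 and 1464 without it. Without 1 array these were 0 to 2, 0 to 6, 2 to 4, 61 to 1132, 217 to 1467, 2130 to 3455 and 799 to 1155.

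Small differences changed sign. Ciita in cDC1 was 0.09 with the replicate block and 0.04 after quantile normalization; the interactions of Cd74 and Ciita were 0.01 after quantile normalization and median centring. The cause was not tested. Leaving out 1 array gave 0 to 1 calls among the 8 for activation in WT and in DKO, 1 to 2 averaged. It moved these differences across 0. Genotype, activated: H2-Ab1 -0.18 to 0.01, H2-DMa -0.20 to 0.02, H2-Ob -0.62 to 0.18, Cd74 -0.11 to 0.02, Ciita -0.27 to 0.11. Genotype, resting: H2-DMa -0.05 to 0.02, H2-Ob -0.76 to 0.25, Cd74 -0.05 to 0.02, Ciita -0.19 to 0.05. Genotype, averaged: H2-Ob -0.49 to 0.01, Cd74 -0.06 to 0.01, Ciita -0.17 to 0.02. Activation in WT: H2-Aa -0.08 to 0.02, H2-Ab1 -0.18 to 0.01, H2-Eb1 -0.13 to 0.02, H2-Ob -0.25 to 0.56, Cd74 -0.09 to 0.04. Activation in DKO: H2-Oa -0.05 to 0.65, H2-Ob -0.32 to 0.70. Activation, averaged: H2-Ob -0.08 to 0.43. Interaction: H2-Aa -0.16 to 0.02, H2-Ab1 -0.05 to 0.13, H2-DMa -0.19 to 0.04, H2-Oa -0.40 to 0.31, H2-Ob -0.48 to 0.54, Cd74 -0.10 to 0.04, Ciita -0.20 to 0.18. For cDC1, Ciita ranged from -0.06 to 0.04. With 2 arrays a group and 1 for cDC1, the number of arrays limits the precision.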
